A study of Rattus norvegicus with 288 samples.

Results

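Pnpla2, Pnpla3 and G0s2 were followed across heart, kidney and liver of rats given Oxaliplatin, Sunitinib, Sorafenib or combinations of them. They are 3 of the 14217 genes that the array names by 1 symbol, and 5 of its 31099 probe sets (the sets of short DNA probes that each measure 1 transcript) belong to them: 1371697_at for Pnpla2, 1388395_at for G0s2, and 1380013_at, 1391544_at and 1380643_at for Pnpla3. The brightest probe set of a gene in a tissue was used, which for Pnpla3 was 1380013_at in heart and liver and 1391544_at in kidney. The members were chosen by earlier results of these data, namely the differences of Pnpla3 in liver at 6 h and 24 h and of G0s2 in heart at 1 h between Oxaliplatin and its vehicle. Those differences, and every other comparison that uses the same rats for the same gene, are therefore given as a description with no test.

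All rats were male Sprague-Dawley rats aged 8 weeks, fed ad libitum. Each received a 30 min intravenous infusion of Oxaliplatin (15 mg/kg, a platinum drug that binds DNA) or of its vehicle D5W (dextrose in water), followed by an oral dose. The oral dose was Sunitinib (5 mg/kg) or its vehicle sterile water, or Sorafenib (25 mg/kg) or its vehicle, a mixture with Pluronic F68 that is called F68 here. Sunitinib and Sorafenib both inhibit receptor tyrosine kinases, among them the VEGF receptors. Tissues were taken 1, 6 and 24 h after dosing from 4 separate rats per group, which gave 96 rats, 288 arrays and 72 groups. Rats on water or Sunitinib shared a dosing day and those on F68 or Sorafenib had another, so oral vehicle and dosing day cannot be told apart. Time after dosing and clock time cannot be told apart either. Within each tissue the array codes in the labels begin differently for 24 h than for 1 h and 6 h. What the code stands for is not stated, so 24 h and array code cannot be told apart.

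Triglyceride is stored in lipid droplets, and its breakdown starts with adipose triglyceride lipase, the product of Pnpla2. G0s2 encodes a small protein that binds this lipase and inhibits it. Pnpla3, also called adiponutrin, encodes a related lipid droplet protein of liver and fat, and its transcript is known to fall with fasting and to rise with feeding and insulin, through the transcription factors SREBP-1c and ChREBP. The members thus comprise a lipase, a relative of it that follows the fed state, and an inhibitor.

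The promoters are shown because the members were chosen from different tissues and times. For each gene the 250 bases before the annotated start are printed 5′ to 3′ on the gene's strand, from RefSeq on assembly GRCr8. They lie at chr1:205982029-205982278 on the plus strand (Pnpla2), chr7:117173278-117173527 on the plus strand (Pnpla3) and chr13:107335949-107336198 on the minus strand (G0s2). Capitals mark matches, on either strand, to motifs that were searched.
Pnpla2: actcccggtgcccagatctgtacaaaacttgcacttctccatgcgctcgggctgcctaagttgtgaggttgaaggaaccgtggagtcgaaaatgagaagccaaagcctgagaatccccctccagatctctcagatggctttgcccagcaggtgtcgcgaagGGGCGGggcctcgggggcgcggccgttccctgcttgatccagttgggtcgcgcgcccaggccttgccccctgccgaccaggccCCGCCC
Pnpla3: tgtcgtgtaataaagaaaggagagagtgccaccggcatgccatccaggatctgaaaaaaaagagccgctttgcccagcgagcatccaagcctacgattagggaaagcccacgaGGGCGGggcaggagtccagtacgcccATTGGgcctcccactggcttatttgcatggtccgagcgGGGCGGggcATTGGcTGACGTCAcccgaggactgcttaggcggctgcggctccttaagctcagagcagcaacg
G0s2: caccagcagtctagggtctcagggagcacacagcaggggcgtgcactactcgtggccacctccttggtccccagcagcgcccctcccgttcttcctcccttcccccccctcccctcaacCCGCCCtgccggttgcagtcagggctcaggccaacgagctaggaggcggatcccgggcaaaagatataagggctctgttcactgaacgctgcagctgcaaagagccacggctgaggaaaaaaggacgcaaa
The motifs searched were the E-box CACGTG (present in 5.59% of 33469 promoters of this length), the NF-Y box CCAAT (34%), the GC box GGGCGG (30.5%), the cAMP response element TGACGTCA (1.59%) and a sterol regulatory element TCACNCCAC (0.974%). Pnpla3 held 2 NF-Y boxes, 2 GC boxes and 1 cAMP response element, the last 58 to 51 bases before the start. Pnpla2 held 2 GC boxes and G0s2 held 1. The letters of the E-box and of the sterol regulatory element were in none of the 3 windows, which says nothing about the factors. The GC content was 63.6% for Pnpla2, 59.2% for Pnpla3 and 62.8% for G0s2, against a median of 51.2% over all promoters (quartiles 44.0% and 60.0%). These matches are descriptions and not binding sites.

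Values are log2 expression values, so that a difference of 1 is a 2-fold difference in signal. Markers of the labelled tissue stood at a median of 14.5 in heart, 13.1 in kidney and 14.8 in liver arrays. The 2 arrays left out were labelled liver and kidney of rats given D5W then Sorafenib at 24 h, and both carried another tissue's markers above their own. That liver group and that kidney group therefore held 3 rats. Each member was put through 54 comparisons per tissue, fitted with limma over all tested genes of the tissue. A comparison counted as called at an adjusted p (Benjamini-Hochberg) under 0.05. Of the 486 member comparisons 22 were called, 13 in heart, 9 in liver and 0 in kidney. Of these, 9 rest on rats whose values chose the members, and 13 (9 in heart and 4 in liver) do not. Before adjustment 34, 8 and 35 comparisons in heart, kidney and liver had a p under 0.05. The called share of all genes depended strongly on the comparison. Among heart genes it was 51.8% for vehicle rats at 24 h against 6 h, but 0% for Sunitinib against water at 6 h. These member counts are therefore descriptions, and whether members were called more often than other genes was not tested. In bulk tissue, fewer cells of a type and less RNA per cell cannot be told apart.

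Liver was the tissue where Pnpla3 varied most. Over all kept liver arrays Pnpla3 ran from 5.74 to 12.16, with a mean of 8.19, while it ran from 8.06 to 9.61 in kidney and from 5.56 to 7.59 in heart. In vehicle rats (D5W then water or F68, all times) it had means of 9.24 ± 1.17 (SD, n = 24; liver), 8.63 ± 0.30 (kidney) and 6.60 ± 0.36 (heart). Pnpla2 had vehicle means of 10.87 ± 0.21 in heart, 10.56 ± 0.21 in kidney and 9.31 ± 0.21 in liver. G0s2 had vehicle means of 10.12 ± 0.63, 11.82 ± 0.18 and 11.72 ± 0.64 in heart, kidney and liver. The sources do not say if normalization joined the tissues, so tissues were not tested against each other, and levels of different genes are not compared because probe sets differ in brightness.

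**Figure D1:**
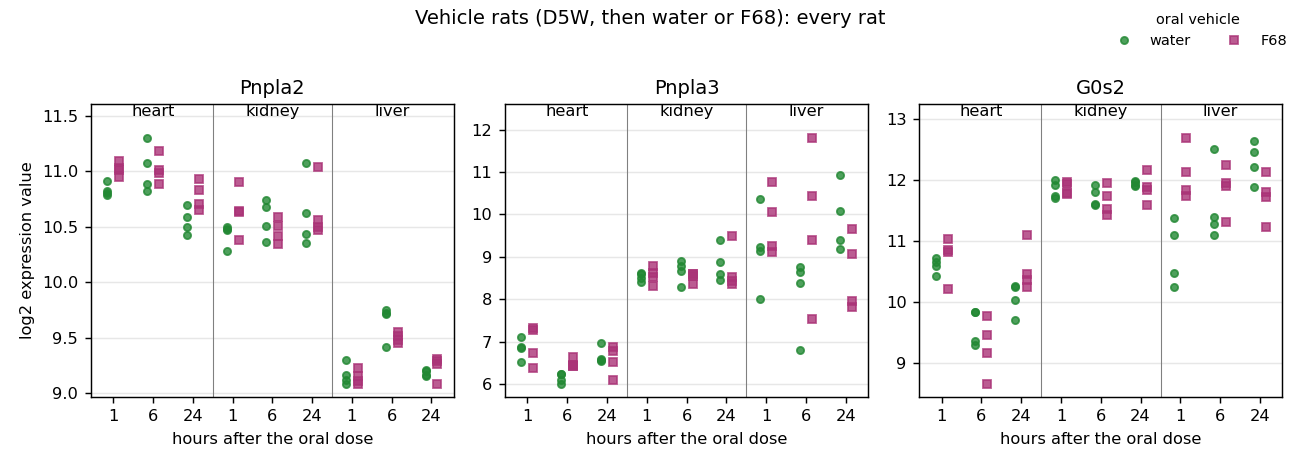
Log2 expression value (y axis) of Pnpla2, Pnpla3 and G0s2 in every vehicle rat, by tissue and by hours after dosing (x axis), with circles for water and squares for F68. Pnpla3 is spread most widely in liver (SD 1.17 over 24 rats), and in heart every G0s2 value at 6 h lies below every value at 1 h.

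Pnpla3 in liver was lower after Oxaliplatin at 6 h and 24 h, and these are the values on which it was selected. At 6 h the 8 rats given D5W with either vehicle had a lowest value of 6.81, a median of 8.70 and a highest of 11.79, and the 8 rats given Oxaliplatin had 5.74, 6.63 and 8.79. At 24 h the same 3 values were 7.81, 9.30 and 10.92 after D5W and 5.76, 6.46 and 7.71 after Oxaliplatin. The groups overlapped at 6 h and did not overlap at 24 h. The log2 difference, with a standard error of 0.54 throughout, came to -0.27 (1 h), -2.24 (6 h) and -2.74 (24 h). For background, 3.46%, 10.4% and 6.4% of the liver genes tested were called in these comparisons at 1, 6 and 24 h.

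The rats of each vehicle showed the difference at 6 h and at 24 h. At 6 h with water, Pnpla3 was 8.65, 6.81, 8.38 and 8.75 after D5W and 6.14, 6.20, 6.56 and 5.74 after Oxaliplatin. With F68 it was 10.44, 11.79, 9.39 and 7.54 after D5W and 6.74, 8.79, 6.71 and 6.94 after Oxaliplatin. All 4 water rats given Oxaliplatin were below all 4 given D5W, whereas with F68 the groups overlapped through the rat at 8.79.

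At 24 h with water, Pnpla3 was 10.92, 10.08, 9.41 and 9.20 after D5W and 6.85, 6.20, 6.34 and 5.76 after Oxaliplatin. With F68 it was 9.66, 7.96, 9.07 and 7.81 after D5W and 7.71, 6.80, 6.56 and 5.97 after Oxaliplatin. Neither pair overlapped. At 24 h the water rats differed by -3.61 ± 0.77 (SE) and the F68 rats by -1.86 ± 0.77. At 6 h these differences were -1.99 for water and -2.49 for F68. At 1 h the 4 groups lay between 7.41 and 12.16 and overlapped with each vehicle.

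The other Pnpla3 probe sets were also lower in the same rats. In liver the difference at 6 h and 24 h was -2.42 and -3.08 by 1391544_at, and -1.17 and -1.17 by 1380643_at, which was dimmer, with a mean of 6.23 against 7.94 and 8.19 for the other sets.

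**Figure D2:**
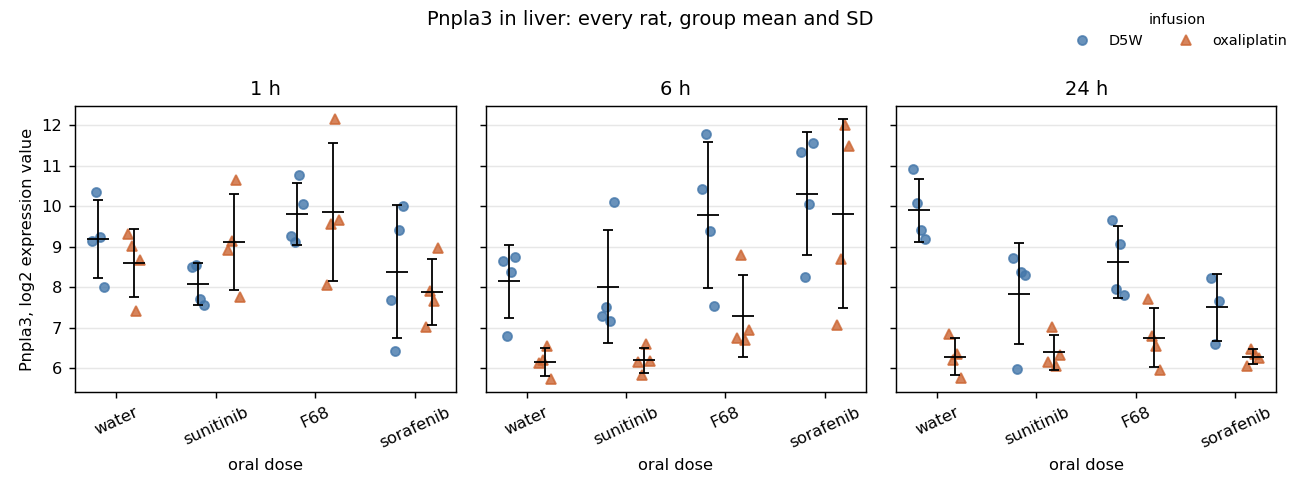
Log2 expression value of Pnpla3 in liver (y axis) for every rat at 1, 6 and 24 h by oral dose (x axis), with circles for D5W, triangles for Oxaliplatin, and black bars for the group mean and SD. At 24 h the Oxaliplatin rats lie between 5.76 and 7.71 under every oral dose, and at 6 h the Oxaliplatin then Sorafenib rats spread from 7.08 to 12.00.

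Rats given Sunitinib or Sorafenib were not used in the choice of Pnpla3, so the Oxaliplatin difference was tested in them, and no test passed the threshold. At 6 h in Sunitinib rats, Pnpla3 was 7.28, 7.52, 7.17 and 10.10 after D5W and 6.15, 5.85, 6.61 and 6.19 after Oxaliplatin. The Oxaliplatin rats were all lower than the D5W rats, by a log2 difference of -1.82 ± 0.77 (SE, 95% interval -3.35 to -0.29), with an adjusted p of 0.135 in limma. Without the D5W rat at 10.10 it was -1.13. At 1 h the difference was 1.04 (adjusted p = 0.791 in limma).

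At 24 h in Sunitinib rats, Pnpla3 was 8.72, 6.00, 8.37 and 8.30 after D5W and 6.16, 7.03, 6.07 and 6.32 after Oxaliplatin. The D5W rat at 6.00 was the lowest of all 8, so the groups overlapped. The log2 difference was -1.45 ± 0.77 (SE, 95% interval -2.98 to 0.08, adjusted p = 0.447 in limma). At 1, 6 and 24 h, 1.54%, 7.69% and 1.02% of liver genes were called in the Sunitinib rats.

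At 6 h in Sorafenib rats, Pnpla3 was 11.35, 8.26, 10.06 and 11.55 after D5W and 7.08, 8.71, 12.00 and 11.49 after Oxaliplatin. The groups overlapped, and the lowest of the 8 rats was the Oxaliplatin rat at 7.08. The log2 difference was -0.48 ± 0.77 (SE, 95% interval -2.02 to 1.05, adjusted p = 0.999 in limma), and without that rat it was 0.43. At 1 h it was -0.49 (adjusted p = 0.968).

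At 24 h in Sorafenib rats, Pnpla3 was 8.24, 6.61 and 7.67 in the 3 D5W rats and 6.06, 6.49, 6.37 and 6.25 after Oxaliplatin. All 4 Oxaliplatin rats were below the D5W rats, by -1.21 ± 0.83 (SE, 95% interval -2.87 to 0.44, adjusted p = 0.246 in limma). The D5W then Sorafenib livers stood apart at 24 h, with a mean beta-actin control of 0.69 against 0.78 to 0.87 in the other groups of that time, and with it as a covariate the difference was -0.62 (adjusted p = 0.583). At 1, 6 and 24 h, 0.379%, 0.284% and 37.2% of liver genes were called in the Sorafenib rats. Interactions of Oxaliplatin with an oral drug were called in 0 of 54 member tests by limma, with 5 at a p under 0.05 before adjustment. The 54 include Pnpla3 in liver at 6 h and 24 h and G0s2 in heart at 1 h, which use the rats of the selecting values. The count is therefore a description, and the share of all genes called for interactions is not given. For Pnpla3 in liver the interactions at 6 h, which use the vehicle rats too, were 0.17 for Sunitinib and 2.01 ± 1.09 (SE) for Sorafenib.

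**Figure D3:**
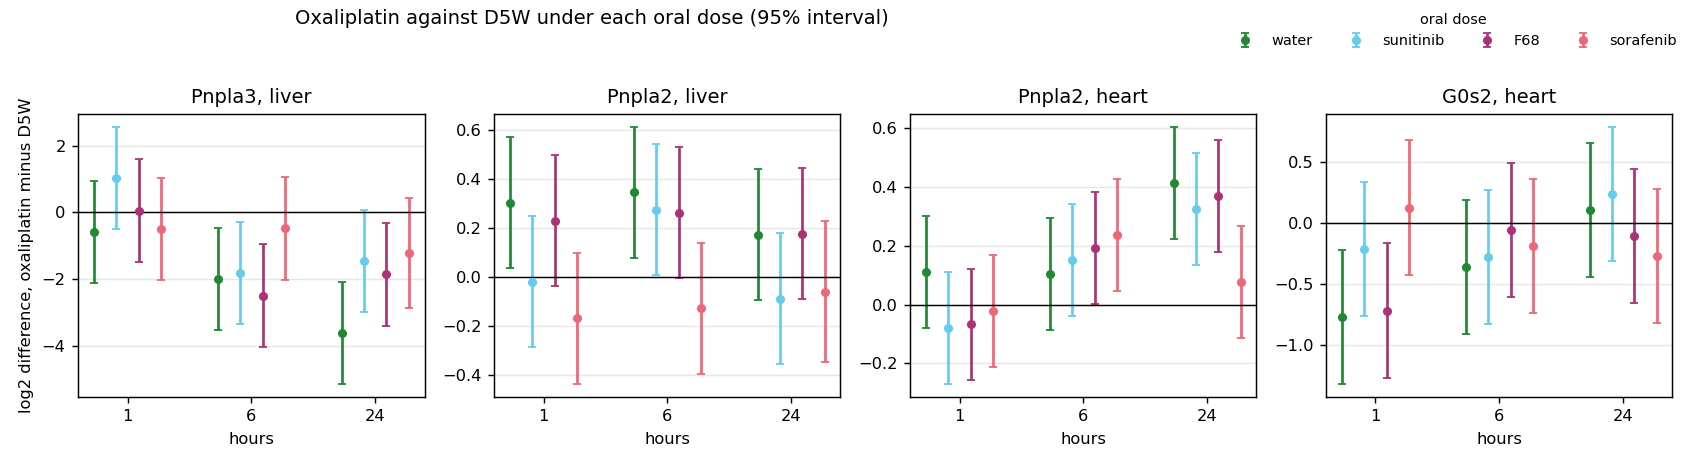
Log2 difference between Oxaliplatin and D5W rats (y axis, points, with 95% intervals from limma as bars) at 1, 6 and 24 h (x axis) under each oral dose, for Pnpla3 and Pnpla2 in liver and Pnpla2 and G0s2 in heart, each with its own y scale. Pnpla3 in liver lies below 0 under all 4 oral doses at 6 h and 24 h, and at 24 h its water value is -3.61. The intervals of Pnpla3 in liver with water or F68 at 6 h and 24 h, and of G0s2 in heart with them at 1 h, belong to the values that chose the genes.

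The 24 liver groups ordered by their Pnpla3 mean ran from 10.30 ± 1.52 (SD) in D5W then Sorafenib at 6 h to 6.16 ± 0.34 in Oxaliplatin then water at 6 h, a span of 4.15. The 7 lowest groups were all Oxaliplatin groups of 6 h or 24 h, and of the Oxaliplatin groups at those times only Oxaliplatin then Sorafenib at 6 h, at 9.82 ± 2.33, stood outside them. Those with water or F68 hold the selecting values, so their low place follows from the choice of Pnpla3. The rest, with Sunitinib or Sorafenib, gave no called difference from their own D5W groups. The widest gap between neighbours was 0.60, below the standard error of 0.77 for a difference of 4 against 4, so that no neighbours in the order differed beyond their spread. Against vehicles at 24 h, the combinations lay at -3.51 (Oxaliplatin then Sunitinib) and -2.33 (Oxaliplatin then Sorafenib), comparisons that share their vehicle rats with the values above. Sunitinib alone lay at -2.05 and Sorafenib alone at -1.12 at 24 h, where 0.964% and 67.3% of liver genes were called.

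Pnpla2, the lipase, was higher in heart 24 h after Oxaliplatin. With water, its values were 10.42, 10.59, 10.70 and 10.50 after D5W and 10.90, 10.99, 11.17 and 10.81 after Oxaliplatin. With F68 they were 10.70, 10.93, 10.65 and 10.83 after D5W and 10.97, 11.20, 11.29 and 11.14 after Oxaliplatin. The groups did not overlap with either vehicle. The log2 difference over both vehicles was 0.39 ± 0.07 (SE), a 1.31-fold rise with an adjusted p of 8.15e-06 in limma, in a comparison where 19.2% of heart genes were called.

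With water alone the rise was 0.41 ± 0.10 (SE, adjusted p = 0.000592 in limma, 22.1% of genes called). With F68 alone the difference was 0.37 ± 0.10 and the adjusted p 0.0578, where 0.23% of genes were called. The beta-actin control, whose signal at the 3′ end minus that at the 5′ end grows as RNA degrades or labelling stops early, had a group mean of 0.75 in D5W then water at 24 h against 0.48 in Oxaliplatin then water, and of 0.45 against 0.44 with F68. With this measure as a covariate the Pnpla2 rise over both vehicles was 0.35 (adjusted p = 0.000541 in limma). At 1 h and 6 h the difference was 0.02 and 0.15 (adjusted p = 0.915 and 0.315), with 1.23% and 0.866% of genes called.

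Rats on the oral drugs gave further values for heart Pnpla2. At 24 h in Sunitinib rats, Pnpla2 was 10.82, 10.85, 10.91 and 10.61 after D5W and 10.96, 10.92, 11.12 and 11.48 after Oxaliplatin. The groups did not overlap, and the difference was 0.32 ± 0.10 (SE, adjusted p = 0.0768 in limma), or 0.20 without the Oxaliplatin rat at 11.48. In Sorafenib rats at 24 h the groups overlapped and the difference was 0.08 ± 0.10 (adjusted p = 0.837).

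At 6 h in Sorafenib rats, Pnpla2 in heart was 10.78, 10.77, 10.75 and 11.00 after D5W and 11.11, 10.99, 11.09 and 11.06 after Oxaliplatin. It rose by 0.24 ± 0.10 (SE, adjusted p = 0.0466 in limma), with the groups overlapping through the D5W rat at 11.00. The call ended, at 0.21 to 0.24, without any of 6 rats, the exceptions being that D5W rat and the Oxaliplatin rat at 10.99. The beta-actin control stood at 0.66 in D5W then Sorafenib and 0.27 in Oxaliplatin then Sorafenib at 6 h, and with it as a covariate the difference was 0.13 (adjusted p = 0.511). Called shares in heart were 8.46%, 0.15% and 1.03% in Sunitinib rats and 0.212%, 33.3% and 0.0442% in Sorafenib rats at 1, 6 and 24 h.

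The combination of Oxaliplatin and Sunitinib stood above D5W then water in heart at 24 h. Pnpla2 rose by 0.57 ± 0.10 (SE, adjusted p = 2.97e-06 in limma, 24.5% of genes called), and no rat of one group reached the other. Sunitinib alone at 24 h had a difference of 0.24 ± 0.10 (adjusted p = 0.0515), where 25.4% of genes were called. The same D5W then water rats, the lowest of the 24 heart groups for Pnpla2 at 10.55 ± 0.12 (SD), serve as controls in all of these comparisons. That group lay 0.23 below the next lowest, D5W then F68 at 24 h (F68 against water, adjusted p = 0.0911). Its beta-actin control had a mean of 0.75, against 0.48 in Oxaliplatin then Sunitinib and 0.45 in D5W then Sunitinib at 24 h. The differences of these 2 groups with that control as a covariate are not given here.

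**Figure D4:**
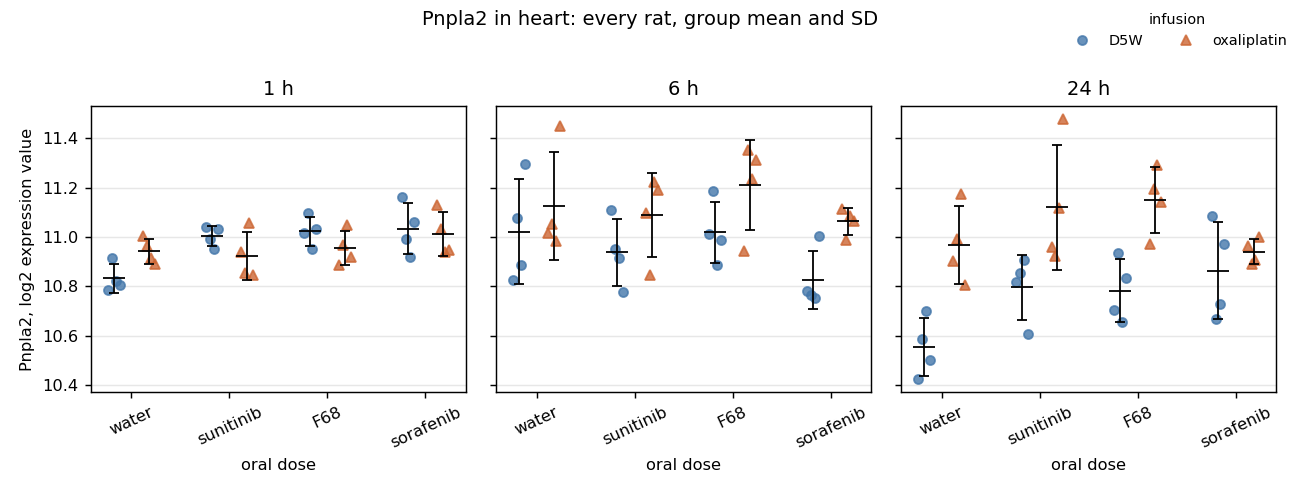
Log2 expression value of Pnpla2 in heart (y axis) for every rat at 1, 6 and 24 h by oral dose (x axis), with circles for D5W, triangles for Oxaliplatin, and black bars for the group mean and SD. At 24 h the Oxaliplatin rats lie above the D5W rats with water, Sunitinib and F68 and overlap with them under Sorafenib.

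In liver Pnpla2 was higher 6 h after Oxaliplatin. With water its values were 9.72, 9.73, 9.75 and 9.42 after D5W and 10.35, 10.03, 10.18 and 9.44 after Oxaliplatin. With F68 they were 9.48, 9.52, 9.55 and 9.45 after D5W and 9.68, 9.60, 9.92 and 9.85 after Oxaliplatin. The F68 groups did not overlap, and with water 1 Oxaliplatin rat lay within the D5W range. The rise over both vehicles was 0.30 ± 0.09 (SE, adjusted p = 0.0261 in limma), and it was 0.25 to 0.28 and no longer called without the Oxaliplatin rat at 10.35, 10.18 or 9.92 or the D5W rat at 9.42. With each vehicle alone it was not called (0.35, adjusted p = 0.126, and 0.26, adjusted p = 0.389). In Sunitinib rats at 6 h the difference was 0.28 (adjusted p = 0.204), in Sorafenib rats -0.13 (adjusted p = 0.999), and at 24 h over both vehicles 0.18 (adjusted p = 0.27).

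Time of sampling was tested in the vehicle rats, 8 against 8, and for 24 h the array code changed along with the time. In liver Pnpla2 rose from 1 h to 6 h and fell back by 24 h. The 8 rats had a lowest, median and highest value of 9.08, 9.14 and 9.30 at 1 h, of 9.42, 9.54 and 9.75 at 6 h and of 9.08, 9.21 and 9.31 at 24 h. The 6 h values lay above all those of 1 h and 24 h. The difference was 0.42 ± 0.09 (SE, adjusted p = 0.0017 in limma, 11.3% of genes called) from 1 h to 6 h and -0.37 ± 0.09 (adjusted p = 0.00821, 7.34% called) from 6 h to 24 h. Between 1 h and 24 h it was 0.05, with 2.03% of genes called. G0s2 in liver passed in none of these 3 comparisons, with an adjusted p of 0.176 or more. Pnpla3 in liver lay at -0.52 (6 h against 1 h), 0.29 (24 h against 6 h) and -0.23 (24 h against 1 h), given with no test.

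In heart Pnpla2 of vehicle rats fell at 24 h, to a lowest, median and highest of 10.42, 10.68 and 10.93 from 10.83, 11.00 and 11.30 at 6 h. The ranges overlapped. The difference was -0.35 ± 0.07 (SE, adjusted p = 1.14e-05 in limma) against 6 h and -0.26 ± 0.07 (adjusted p = 0.000885) against 1 h, where 51.8% and 49.2% of heart genes were called. These 24 h rats are also the controls of the Oxaliplatin rise at 24 h, so the fall and the rise are not independent. Their mean was 10.67, against 11.02 in vehicle rats at 6 h and 11.06 in Oxaliplatin rats at 24 h. The beta-actin control of vehicle rats went from 0.32 at 6 h to 0.75 at 24 h with water, and from 0.27 to 0.45 with F68. Pnpla3, dim in heart, had a lowest, median and highest of 6.38, 6.85 and 7.33 at 1 h and of 5.99, 6.33 and 6.63 at 6 h. The ranges overlapped, and it fell by 0.57 ± 0.17 on the log2 scale (adjusted p = 0.00712 in limma), with 36.8% of genes called.

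G0s2, the inhibitor, was lower in heart 1 h after Oxaliplatin, the value on which it was selected. With water it was 10.72, 10.42, 10.66 and 10.58 after D5W and 9.34, 9.27, 10.62 and 10.08 after Oxaliplatin. With F68 it was 11.02, 10.84, 10.83 and 10.20 after D5W and 9.35, 10.43, 9.83 and 10.42 after Oxaliplatin. The groups overlapped with both vehicles, and the log2 difference over both was -0.74 ± 0.19 (SE).

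Rats that the choice did not use were tested for the same difference, and it was not called. At 1 h in Sunitinib rats, G0s2 was 10.16, 10.10, 10.59 and 10.03 after D5W and 10.01, 10.42, 9.55 and 10.04 after Oxaliplatin. In Sorafenib rats it was 9.82, 9.73, 9.99 and 9.31 after D5W and 9.70, 9.60, 10.16 and 9.91 after Oxaliplatin. Both pairs overlapped, with differences of -0.21 ± 0.27 (SE, 95% interval -0.76 to 0.33, adjusted p = 0.684 in limma) and 0.13 ± 0.27 (-0.42 to 0.67, adjusted p = 0.884). At 6 h and 24 h the Oxaliplatin differences over both vehicles were -0.21 and -0.00.

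G0s2 in heart also differed between Sorafenib and F68. At 1 h the Sorafenib rats given D5W, just listed, all lay below the F68 rats at 11.02, 10.84, 10.83 and 10.20, a difference of -1.01 ± 0.27 (SE) that shares the F68 rats with the selecting value and is given with no test (12.2% of genes called). Sunitinib lay at -0.38 against water at 1 h, where 10% of genes were called.

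At 6 h G0s2 was 10.30, 9.92, 10.14 and 9.41 after Sorafenib and 8.64, 9.46, 9.77 and 9.15 after F68. The groups overlapped, and Sorafenib rats were higher by 0.69 ± 0.27 (SE, adjusted p = 0.0373 in limma, 41.9% of genes called). The call ended, at 0.48 to 0.69, without the Sorafenib rat at 10.30, 9.92 or 10.14 or the F68 rat at 8.64 or 9.15. The beta-actin control stood at 0.66 in these Sorafenib rats and 0.27 in the F68 rats, and with it as a covariate the difference was 0.16 (adjusted p = 0.797). The 6 h minus 1 h change of the Sorafenib difference was 1.70 ± 0.39 (SE), in a comparison where 38.3% of genes were called, and 1.04 with the beta-actin covariate, both given with no test. At 24 h Sorafenib against F68 was 0.31 (adjusted p = 0.521, 7.05% called).

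**Figure D5:**
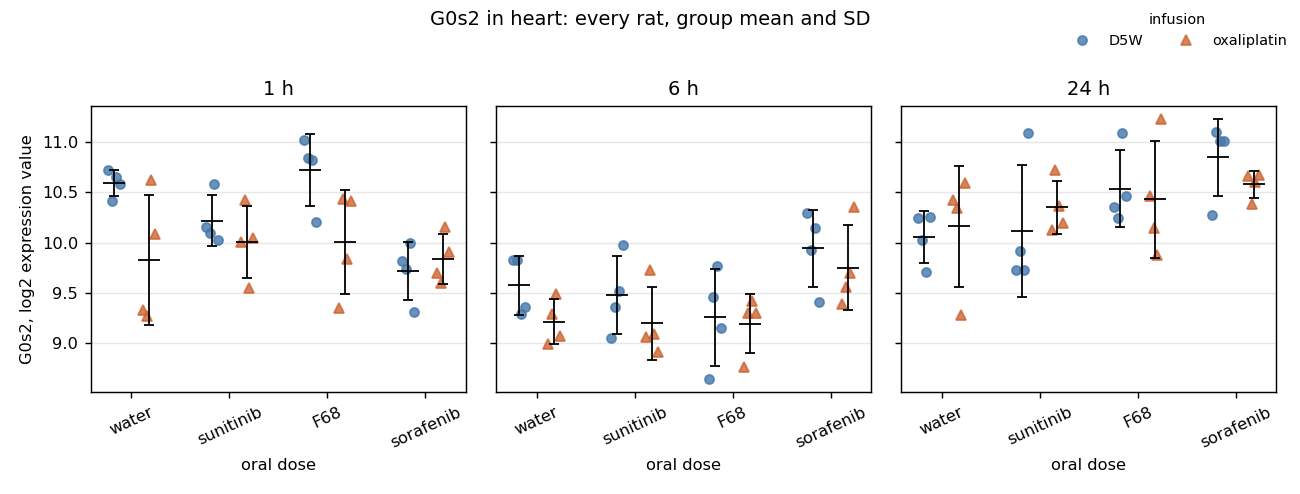
Log2 expression value of G0s2 in heart (y axis) for every rat at 1, 6 and 24 h by oral dose (x axis), with circles for D5W, triangles for Oxaliplatin, and black bars for the group mean and SD. At 1 h the D5W then F68 rats lie between 10.20 and 11.02 and the D5W then Sorafenib rats between 9.31 and 9.99, and at 6 h the group means lie between 9.19 and 9.94.

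In vehicle rats G0s2 in heart had a lowest, median and highest value of 10.20, 10.69 and 11.02 at 1 h. The 6 h rats had 8.64, 9.41 and 9.83 instead, whereas the 24 h rats had 9.71, 10.25 and 11.09. The 6 h rats lay below all 1 h rats and overlapped with the 24 h rats. The 6 h against 1 h difference was -1.24 ± 0.19 (SE), with no test because the 1 h rats are those of the selecting value. From 6 h to 24 h G0s2 rose by 0.88 ± 0.19 (adjusted p = 0.000112 in limma). With the beta-actin control as a covariate that rise was 0.46 (adjusted p = 0.222). Among the 24 heart groups, the 6 lowest for G0s2 were all 6 h groups, and the widest gap between neighbours, 0.22, was below the standard error of 0.27 for a difference of 4 against 4.

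In liver G0s2 was higher with F68 than with water at 1 h. Its values were 11.74, 12.68, 11.83 and 12.13 with F68 and 11.10, 11.37, 10.47 and 10.24 with water, so the groups did not overlap. The difference was 1.30 ± 0.31 (SE, 2.47-fold, adjusted p = 0.0483 in limma), in a comparison where 0.198% of genes were called. The call ended, at 1.11 to 1.40, without the F68 rat at 12.68 or 12.13 or the water rat at 11.10, 10.47 or 10.24. The beta-actin control did not overlap either, at 0.79 to 0.82 with F68 and 0.84 to 0.91 with water, and with it as a covariate the difference was 1.20 (adjusted p = 0.0863). The other groups dosed with these rats at 1 h went the same way: the Oxaliplatin group means were 11.60 with F68 and 10.37 with water. At 6 h and 24 h F68 against water was 0.28 and -0.58 (adjusted p = 0.848 and 0.567).

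Drug differences of liver G0s2 did not pass. Oxaliplatin lay at -0.46 at 1 h, 0.14 at 6 h and -0.39 at 24 h (adjusted p = 0.317, 0.77 and 0.29 in limma). Sorafenib at 24 h lay at -0.68 ± 0.34 (SE, adjusted p = 0.066), where the median of all genes was -0.24. Without 1 Sorafenib rat, the lowest at 10.54, it was -0.43. Sunitinib at 24 h lay at -0.67 (adjusted p = 0.268). At 1 h and 6 h the shares of liver genes called were 0% and 0% for Sunitinib and 0.0689% and 0.0344% for Sorafenib, and in heart the share for Sunitinib at 6 h was 0%.

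In kidney the group means of each gene spanned less than in heart or liver. They ran from 10.38 to 10.96 for Pnpla2 (a span of 0.59), from 8.50 to 8.99 for Pnpla3 (0.48) and from 11.61 to 12.06 for G0s2 (0.46). No member was called by limma in any of the 162 comparisons, and 8 had a p under 0.05 before adjustment. Oxaliplatin called 9.41%, 20.6% and 7.77% of kidney genes at 1, 6 and 24 h, and Sorafenib 0%, 0.0731% and 0.203%. Sunitinib called 0.0244%, 0% and 0%, and the vehicle times (6 h against 1 h, 24 h against 6 h and 24 h against 1 h) 1.98%, 7.33% and 3.4%.

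The member comparisons closest to the threshold in kidney were these. Pnpla3 at 1 h was 9.14, 9.21, 8.93 and 8.67 after Oxaliplatin then Sunitinib and 8.49, 8.62, 8.59 and 8.40 in D5W then water. The groups did not overlap and differed by 0.46 ± 0.18 (SE, adjusted p = 0.0797 in limma). G0s2 from 6 h to 24 h in vehicle rats differed by 0.22 (adjusted p = 0.0998), and after Oxaliplatin at 1 h by -0.21 (adjusted p = 0.105).

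Adipocyte markers varied widely between kidney arrays. Their median over 7 genes ran from 5.85 to 10.32 over the kidney arrays, with adiponectin (Adipoq) at 6.83 to 10.25 and perilipin 1 (Plin1) at 5.01 to 8.79. Cfd (5.22 to 10.95) and Fabp4 (5.85 to 12.43) also varied widely there. Lep (5.13 to 6.28), Cidec (8.87 to 10.40) and Lpl (10.66 to 12.50) varied less. Across the 24 kidney group means Pnpla2 had a Pearson correlation of 0.84 with this marker median, Pnpla3 of 0.20 and G0s2 of -0.10, as descriptions over groups of 1 tissue. Over the heart and liver group means, described the same way, the correlations were 0.40 and 0.28 for Pnpla2, -0.20 and -0.06 for Pnpla3, and -0.51 and -0.27 for G0s2. In heart the marker median ran from 5.08 to 5.93, under the filter value of 6. The heart correlations therefore cannot be read as following adipocyte content. In heart Adipoq, Lep, Plin1 and Cidec stayed at or below 5.93 on every array, while Fabp4 (12.62 to 13.37), Lpl (13.50 to 13.83) and Cfd (6.93 to 9.29) were higher. In liver Adipoq, Lep and Plin1 stayed at or below 6.15, while Cfd (8.46 to 10.79), Cidec (9.50 to 11.11), Lpl (5.71 to 7.96) and Fabp4 (4.74 to 8.51) reached higher values. In liver 24 h after Oxaliplatin, 2 markers that liver also expresses were called, Fabp4 at 0.93 and Cfd at -0.53. The marker median was used as a covariate in 1 alternative fit, chosen after seeing the data, and the calls that it ended are given below. The part of these markers in the member values was not tested otherwise.

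Other genes of the pathway were counted from lists that were chosen with earlier results of these data known, so these counts are descriptions. Of 22 lipogenic genes and regulators tested in liver, 12 were called lower and 0 higher 24 h after Oxaliplatin (median -0.53, against -0.02 over all genes, of which 6.4% were called). The largest called differences were those of Scd, a fatty acid desaturase, which fell by 1.54 on the log2 scale, Pklr (liver pyruvate kinase, a ChREBP target) by 1.10, Fasn (fatty acid synthase) by 1.09 and Me1 (malic enzyme) by 1.00. These rats are those whose low Pnpla3 values led to its choice, so the list gives no separate test of Pnpla3.

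At 6 h 5 of the 22 were called lower and 0 higher (median -0.23, 10.4% of all genes called), among them Acacb at -0.63 and the desaturases Fads1 at -0.50 and Fads2 at -0.46. At 1 h 1 was called, Insig1, a sterol sensor, at 0.53 (3.46% of all genes called). In Sunitinib rats at 24 h 6 were called lower and 0 higher (median -0.44, 1.02% of all genes called), with Scd at -1.87 and Pklr at -1.36. In Sorafenib rats at 24 h 10 were called lower and 1 higher (median -0.34, where the median of all genes was 0.12 and 37.2% of them were called), and at 6 h 0 were called by limma (0.284% of all genes).

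Of 17 fasting responsive genes tested in liver, 4 were called higher and 2 lower at 24 h after Oxaliplatin (median 0.04), where 6.4% of all liver genes were called. Igfbp1, which insulin represses, stood 1.36 higher and Irs2, an insulin receptor substrate, 0.54 higher, while Fgf21, a fasting hormone, stood 0.86 lower. At 1 h 3 were called higher, among them Igfbp1 at 1.62 and Txnip at 0.38 (3.46% of all genes called). At 6 h the lone call was Pdk4, a brake on pyruvate oxidation, at -1.05, which is a share below the 10.4% of all genes. In Sunitinib rats 0 of 17 were called at 24 h (1.02% of all genes called). In Sorafenib rats at 24 h 0 were called higher and 1 lower (37.2%). At 6 h 0 were called in either (7.69% and 0.284%). At 1 h Txnip alone was called, higher by 0.42 in Sunitinib rats and 0.41 in Sorafenib rats (1.54% and 0.379%).

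Of 25 genes of lipid droplets and lipolysis tested in liver after Oxaliplatin, 1 was called higher at 1 h (Lpin1, 0.85), 1 lower at 6 h (Aadac, -0.28) and 2 lower at 24 h (Cidea, -0.61, and Plin3, -0.37). Of all liver genes 3.46%, 10.4% and 6.4% were called at these times. In heart at 24 h 10 of 23 were called higher and 0 lower (median 0.17, against 0.03 over all genes), in the same rats in which Pnpla2 was higher and where 19.2% of all genes were called (1635 higher and 537 lower). The beta-actin values given above for these rats (0.75 and 0.45 after D5W, 0.48 and 0.44 after Oxaliplatin) apply to this count too, and their part in it was not tested. They included Dgat2, which makes triglyceride, at 0.48, the lysosomal lipase Lipa at 0.34, hormone-sensitive lipase Lipe at 0.33 and the droplet coat protein Plin2 at 0.30. With water alone 9 were called higher (22.1% of all genes called) and with F68 alone 0 (0.23%). In Sunitinib rats at 24 h 0 of 23 were called (median -0.05, against -0.02 over all genes, of which 1.03% were called). In Sorafenib rats 0 of 23 were called as well (median 0.06, against 0.03 over all genes, of which 0.0442% were called). In vehicle hearts 2 of the 23 were called higher and 8 lower at 24 h against 6 h, with Dgat2 at -0.54 and Lipe at -0.44, where 51.8% of all heart genes were called. The 24 h vehicle rats are also the D5W controls of the Oxaliplatin count at 24 h, so these counts are not independent. After Sorafenib at 6 h 1 was called higher and 7 lower in heart, with Lipe at -0.35 and Plin5 at -0.36, where 41.9% of all genes were called. Neither of these 2 shares stood above that of all genes.

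Of the other family members 4 of 5 were on the array (Pnpla1, Pnpla6, Pnpla7 and Pnpla8). In liver 0 of 4 were called after Oxaliplatin over both vehicles at any time, and in Sorafenib rats at 24 h 2 were called higher (Pnpla7, 0.45, and Pnpla8, 0.44) and 1 lower (Pnpla6, -0.24), where 37.2% of all genes were called. In heart at 24 h 1 of 3 was called, Pnpla7, a lysophospholipase, at 0.23 (19.2% of all genes called). In kidney 0, 1 and 0 of 4 were called at 1, 6 and 24 h, the 1 being lower (9.41%, 20.6% and 7.77% of all genes called).

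Genes whose pattern was most like a member's were found by the Pearson correlation of the 24 group means, which share arrays and normalization, and are listed with no test for members whose group means spanned at least 1. For Pnpla3 in liver the highest were Pgd (0.88) and Tkt (0.87), both of the pentose phosphate pathway, Rpa1 (0.86), Acsl5 (0.85) and Gbe1 (0.85), and the lowest Lbp, Apoa5 and Crip2 (-0.83 each). For G0s2 in liver the highest were Mid1ip1 (0.82), Srebf1 (0.78), which encodes SREBP-1, Rtp3 (0.77), Repin1 (0.75) and Abl1 (0.74), and the lowest Depp1 (-0.73), Irs2 (-0.73) and Enc1 (-0.68). For G0s2 in heart they were Strap, Cox11 and Rbm18 (0.89 each), Wdr77 and Elp4 (0.88 each), and the lowest Zxdc (-0.91), Plekhm1 (-0.85) and Elavl2 (-0.85).

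Correlations between members were weaker than these, which were picked as the most extreme among the tested genes. That order follows from the picking and says nothing about the members. Between Pnpla2 and G0s2, lipase and inhibitor, the correlations over group means were -0.39 (heart), 0.11 (kidney) and -0.01 (liver). Between Pnpla3 and G0s2 they were 0.51, 0.12 and 0.15, and between Pnpla2 and Pnpla3 -0.42, 0.20 and -0.32. The Sorafenib difference minus the Sunitinib difference, whose doses differ, was called by limma for a member in 0 of 27 tests, and 1 had a p under 0.05 before adjustment. Some of the 27 use the rats of the selecting values, so this count is a description too. The share of all genes called in these tests is not given.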

How the data were processed

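RNA of heart, kidney and liver was labelled and hybridized by the authors to 1 array per rat and tissue. The authors deposited 1 log2 value for each probe set and array, made with RMA (background correction, quantile normalization and summary of probes; version not given in the sources used here). Quantile normalization is meant to give arrays a shared distribution, so a shift of all genes can be hidden. The medians of single arrays lay between 6.63 and 6.69 (heart), 7.32 and 7.81 (kidney), and 6.66 and 6.78 (liver). Kidney medians thus lay above the others and varied more, so the deposited values did not share 1 distribution over all arrays. Arrays carry no read depth, and the number of rats limits the precision.

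Of 31099 probe sets, 20826 had 1 gene symbol in the platform annotation, 436 several and 9780 none, and 57 were controls. The brightest probe set by mean stood for a gene in each tissue. Genes over log2 6 on at least 4 arrays were tested, all 3 members among them in each tissue. One limma fit per tissue (limma 3.58.1, R 4.3.3, 24 group means, eBayes defaults, two-sided, Benjamini-Hochberg within a comparison) gave all differences, and Python 3.11.15 with pandas 2.3.3 the summaries. The scripts were tested on simulated data. Values after ± are standard errors of limma or, where written, SD. Groups come from the labels, which give no replicate numbers.

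The members, the gene lists and the comparisons were chosen with earlier results of these data known. Named list genes are up to 4 called members with the largest difference in a comparison described, and genes of like pattern are the 5 highest and 3 lowest correlations. Alternatives varied the arrays left out, normalization, filter, probe set, variance model, array weights, RNA quality, samples fitted and oral vehicle, and left out each rat in turn.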

Additional observations from a re-analysis of the deposited data

Results flagged for a closer look

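A rat stood apart from the other 3 of its group, by a gap large for the group's range (Dixon's criterion at 95%), in 17 of 210 groups and members checked (8.10%), where chance gives about 1 in 20. In liver these were Pnpla3 in D5W then Sunitinib at 6 h (10.10, next 7.52), in Oxaliplatin then F68 at 6 h (8.79, next 6.94) and in D5W then Sunitinib at 24 h (6.00, next 8.30), G0s2 in Oxaliplatin then F68 at 1 h (12.44, next 11.39) and in Oxaliplatin then Sorafenib at 6 h (11.40, next 12.08), and Pnpla2 in D5W then water at 6 h (9.42, next 9.72). In heart they were G0s2 in D5W then Sorafenib at 24 h (10.28, next 11.01) and D5W then Sunitinib at 24 h (11.09, next 9.92), Pnpla2 in D5W then Sorafenib at 6 h (11.00, next 10.78) and Oxaliplatin then water at 6 h (11.45, next 11.05), and Pnpla3 in D5W then F68 at 6 h (6.63, next 6.45), Oxaliplatin then Sorafenib at 6 h (6.46, next 6.10) and D5W then water at 24 h (6.98, next 6.58). In kidney they were Pnpla2 in D5W then water at 1 h (10.28, next 10.48), Oxaliplatin then F68 at 1 h (11.23, next 10.49) and D5W then F68 at 24 h (11.04, next 10.56), and Pnpla3 in D5W then F68 at 24 h (9.50, next 8.51).

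The Sorafenib difference of G0s2 in heart was 1.70 higher at 6 h than at 1 h on the log2 scale, and 1.04 higher with the beta-actin control as a covariate; this control stood at 0.66 in the Sorafenib rats and 0.27 in the F68 rats at 6 h. It went from below F68 to above F68, and it shares the F68 rats of 1 h with the value on which G0s2 was selected.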

How the results depend on the processing

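Of 30 member differences that were recomputed, 29 kept their sign in every setting. Of 338 alternative values that left out no single rat, 305 stayed on the same side of the threshold (or, for the selecting values, within the spread), 21 lost a call, 10 gained one and 2 moved. Some differences of G0s2 in heart that are given with no test were also scored by the threshold. They were Sorafenib against F68 at 1 h, its 6 h minus 1 h change, and vehicle rats at 6 h against 1 h. The totals are therefore descriptions. The difference of Pnpla3 in liver at 24 h moved to -3.61 with water alone and -1.86 with F68 alone. With the beta-actin control as a covariate, calls were lost for G0s2 in heart under Sorafenib at 6 h (0.16) and its vehicle change from 6 h to 24 h (0.46), for Pnpla2 in heart after Oxaliplatin in Sorafenib rats at 6 h (0.13), for Pnpla2 in liver after Oxaliplatin at 6 h (0.27) and for G0s2 in liver with F68 at 1 h (1.20). G0s2 in heart under Sorafenib at 6 h was also lost after further quantile normalization (0.65) and with the adipocyte marker median as a covariate, chosen after seeing the data (0.68), which also ended the F68 call of liver G0s2 (1.29). That F68 call was lost too with the 2 left-out arrays kept, with no filter and with a trended, robust variance (1.30 each). The 6 h minus 1 h change of G0s2 in heart, counted among these values but given with no test, was 1.04 with the beta-actin covariate. Pnpla2 in heart after Oxaliplatin in Sorafenib rats at 6 h was also lost with array medians subtracted (0.17), no filter or only arrays of that time (0.24 each) and array weights (0.22). Pnpla2 in heart after Oxaliplatin at 24 h was lost with F68 alone (0.37). The gained calls were of Pnpla2 in heart at 24 h with F68 (stricter filter, 0.37, and array weights, 0.38), in Sunitinib rats (0.35 and 0.36, by the normalizations) and under Sunitinib alone (0.24 to 0.27, in 5 settings), and of G0s2 in liver under Sorafenib at 24 h (beta-actin covariate, -0.88). Pnpla2 in liver after Oxaliplatin at 6 h was lost with the left-out arrays kept or only arrays of that time (0.30 each), with water alone (0.35) and with F68 alone (0.26).

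Leaving out each rat in turn gave 350 values, of which 321 kept their side, 20 lost a call, 8 gained one and 1 reversed: Pnpla3 in liver of Sorafenib rats at 6 h ran from -1.21 to 0.43. They were scored in the same way and include the same untested differences. Calls were lost for 5 of the 8 rats of G0s2 in heart under Sorafenib at 6 h (all values 0.48 to 0.86), 4 of 16 of Pnpla2 in liver after Oxaliplatin at 6 h (0.25 to 0.40), 5 of 8 of G0s2 in liver with F68 at 1 h (1.11 to 1.49) and 6 of 8 of Pnpla2 in heart after Oxaliplatin in Sorafenib rats at 6 h (0.21 to 0.30). Calls were gained without 1 rat for Pnpla2 in heart at 24 h (Oxaliplatin with F68, 0.42 and 0.43, or with Sunitinib, 0.39, and Sunitinib alone, 0.29 and 0.31), for G0s2 in liver under Sorafenib at 24 h (-0.85 and -0.84) and for Pnpla3 in kidney under Oxaliplatin then Sunitinib at 1 h (0.57). Other rats moved Pnpla2 in heart of Sunitinib rats down to 0.20 and G0s2 in liver under Sorafenib to -0.43. Counts of all genes called differed by over 1.5 times from the stated ones in 138 of 615 settings over 53 comparisons, for example 743 against 347 in liver 24 h after Oxaliplatin with the left-out arrays kept and 2172 against 26 in heart at 24 h with F68 alone. No paired analysis was possible because the labels give no replicate numbers. With further kidney arrays left out, Pnpla3 under Oxaliplatin then Sunitinib at 1 h stood at 0.41 and G0s2 under Oxaliplatin at 1 h at -0.21, neither called.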
